A study of Mus musculus with 10 samples.

Results

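The comparison described here sets 1 array of Ezh2-deleted stem and progenitor cells against 1 array of wild type cells, both titled 3 months in the series labels. Of the 10 arrays of the series, these 2 were chosen by their titles. A probe was kept when the scanner called it well above background on at least 1 of the 2 arrays, which held for 26248 of 55681 probes. With the brightest probe standing for each gene named through RefSeq, and unnamed probes kept as features of their own, 22421 of 48997 features were compared, 12845 of them named genes.

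The cells were LSK cells, which lack lineage markers and carry Sca-1 and c-Kit, the bone marrow gate that holds hematopoietic stem cells and multipotent progenitors, sorted for the CD45.2 allele from transplanted C57BL/6 mice. The KO array (KO_3mo) came from cells of genotype Cre-Ert;Ezh2fl/fl, in which tamoxifen activates a Cre recombinase that removes the floxed Ezh2 alleles. The WT array (WT_3mo) came from Cre-Ert cells, which carry the same recombinase without floxed alleles. Both groups were transplanted and given tamoxifen, and both carried the disease label "no". The design text of the series gives 3 mice, but there was 1 array per genotype, and the sources used here do not state whether mice were pooled. The other 8 arrays were labelled 9-12 months: 6 KO arrays with names of single mice (labelled MDS in 2, MDS/MPN in 2, MDS/MPN_TC in 1 and not determined in 1), 1 KO array titled only by genotype and time, and 1 WT array. The 2 arrays titled 3 months shared a slide, and the other 8 shared another, so time label and slide cannot be told apart.

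The deposited value table carries the other time label for this pair. Its column for the 9-12 month WT sample matched the scanner file titled 3 months WT (SD of the log2 ratio 0.00122 over 17086 probes), and its column for the 9-12 month KO sample titled by genotype matched the scanner file titled 3 months KO (SD 0.00994 over 17081 probes). No column matched any other scanner file with an SD under 0.588. The 2 columns titled 3 months held the other pair, which lies on the slide of the 9-12 month arrays. Genotype labels were the same in both sources, so the direction of the comparison does not depend on which time label is right, but the time itself is not settled by the files. The names KO_3mo and WT_3mo below follow the scanner files.

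Ezh2 is the catalytic subunit of Polycomb repressive complex 2 (PRC2), which places methyl groups on lysine 27 of histone H3 and keeps developmental and lineage genes silent. Eed and Suz12 are its core partners, and Ezh1 is a second, weaker catalytic subunit that can stand in for Ezh2. In blood, stem cells give rise to myeloid, erythroid, megakaryocytic and lymphoid progenitors that switch on their own gene programs step by step, and the LSK gate lies before the mature stages of those lineages.

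All levels below are log2 signals relative to the 75th percentile of their array, so that 0 is the 75th percentile of the probes on that array, and all differences are KO_3mo minus WT_3mo on the log2 scale. The 75th percentile intensity was 78.7 on the KO array and 94.5 on the WT array (78.7 to 301.7 over the 10 arrays), and 43.0% and 44.5% of probes were well above background (32.5% to 47.5% over the 10). No spot was saturated. With 1 array per genotype no difference has a replicate check, so no p value is given for single genes. The scanner software attaches a technical error to each signal, and its median for a difference was 0.21. That error leaves out differences between mice.

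The WT array was the least like the other arrays, by a narrow margin. Across 22419 features its signal had a Pearson correlation of 0.951 with the median of the slide of 8 arrays, against 0.971 for the KO array and 0.956 to 0.986 for each of those 8 arrays against the other 7, the lowest of these being an MDS/MPN array. The features share their arrays, so these values are descriptions. For many differences below, the level on the WT array therefore lay outside the range of the other arrays, and levels or list medians from the 9-12 month arrays are given beside many of them.

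Across the 22421 features the median difference was 0.23, and 13951 differences were positive. A feature was counted when it differed by at least 2-fold. By that rule 2883 features (12.9%) were higher on the KO array and 2715 (12.1%) were lower, 25.0% in all. Counts of list members below are to be read beside these shares. The shares varied with signal level. Below a mean level of -2 over the 2 arrays, 947 of 4975 features were higher and 1364 lower. At a mean level of 4 and above, 534 of 3930 were higher and 73 lower, with a median of 0.40. Lists were not matched to features of like level. On the other slide, the KO array titled by genotype was at least 2-fold higher than its WT array for 883 of 19580 features (4.51%) and lower for 852 (4.35%), together 8.86%. The 2 MDS arrays differed by at least 2-fold for 2172 of 20311 features, and the 2 MDS/MPN arrays for 10745 of 23166 (46.4%). The MDS/MPN_TC array differed from the MDS/MPN arrays for 9.30% and 42.5% of features. Both shares above 40% involve 1 MDS/MPN array, the one with the highest 75th percentile intensity (301.7), and without it the share in the pair was above both remaining values.

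Among the 2883 features higher on the KO array, the WT array was the lowest of all 10 arrays for 1556 (54.0%), while the KO array was the highest of all 10 for 723 (25.1%). Among the 2715 lower features, the WT array was the highest of all 10 for 1596 (58.8%) and the KO array the lowest for 769 (28.3%). With the 9-12 month WT array in the place of WT_3mo, a comparison added after these values were seen and made across slides, 2945 of 21538 features were at least 2-fold higher (13.7%) and 1878 lower (8.72%).

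**Figure D1:**
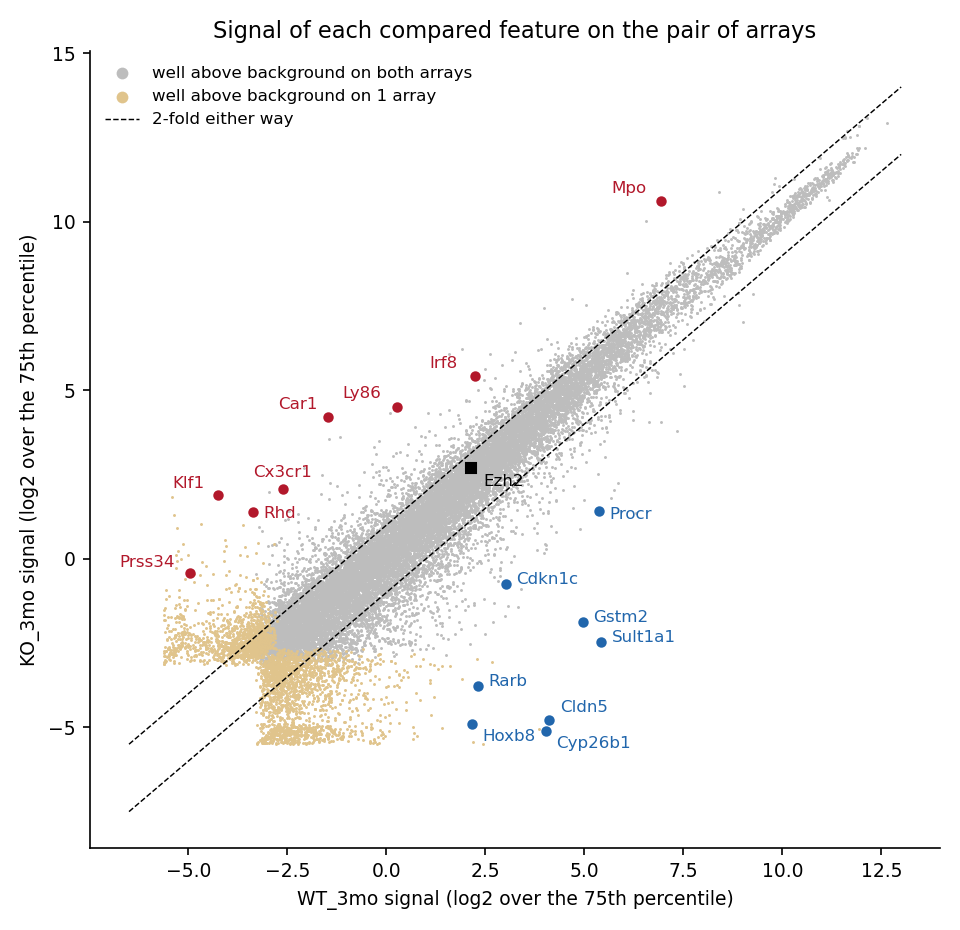
Signal of the 22421 compared features on the KO array (vertical) and the WT array (horizontal), as log2 over the 75th percentile of each array, with lines at 2-fold. Named genes lower on the KO array (blue, such as Sult1a1 at -2.48 against 5.43) and higher on it (red, such as Car1 at 4.20 against -1.48) lie far outside the lines, and Ezh2 (black square) lies inside them.

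A limma fit that lent both arrays the spread of the 6 single-mouse KO arrays (5 residual degrees of freedom) called 0 of 22419 features (0.0%) at a Benjamini-Hochberg adjusted p under 0.05. At an unadjusted p under 0.05 it gave 497 higher and 900 lower features. On simulated data of the same size, this fit recovered 0% of 100 features changed by 2 on the log2 scale and 13% of 100 changed by 4. After quantile normalization the same fit called 5 features higher and 34 lower, and it called 0 under every other setting run.

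The targeted gene did not separate the genotypes. Ezh2 had a level of 2.70 on the KO array and 2.13 on the WT array, a difference of 0.57 with a technical error of 0.20. Its levels on the 6 KO arrays of 9-12 months ran from 2.13 to 3.35, and the WT array of that time had 2.63. Only 1 probe was named Ezh2, and the sources used here do not say whether it lies in the deleted exons, so it does not check the labels.

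Of the 13 PRC2 genes listed, all were measured on both arrays, 1 was at least 2-fold higher and 1 at least 2-fold lower. Over all features the shares were 12.9% and 12.1%. The list median was 0.21, close to the median over all features. Epop, an accessory subunit that binds elongin, was higher at 3.67 on the KO array against 2.07 on the WT array (difference 1.59). Phf1, a Polycomb-like accessory subunit, was lower at -1.33 against 0.52 (difference -1.85). Both KO levels lay within the range of the 6 single-mouse KO arrays of 9-12 months, which had 3.57 to 4.33 for Epop and -3.70 to 0.07 for Phf1. Ezh1, the alternative catalytic subunit, had 3.74 on the KO array and 4.60 on the WT array (difference -0.87), and its 3 probes gave differences of -2.17 to -0.87. Eed had 4.98 against 4.23, and Suz12 had 1.18 on both arrays. Among 21 compared PRC1 genes, which encode the second Polycomb complex, 2 were at least 2-fold higher and 0 lower (median 0.14).

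Developmental regulators were mostly not well above background, and whether PRC2 binds them in these cells was not tested. Among 46 developmental regulators probed, 8 were well above background on either array. Of these 8, 2 were at least 2-fold higher and 1 lower by measured level, against 12.9% and 12.1% of all features. Msx2, a homeobox factor of limb and skull, was measured on both arrays, with 0.45 on the KO array and -1.04 on the WT array. Nkx6-1, a factor of neural tube and pancreas, was well above background on the KO array only (-2.79 against -4.32), which gives at least 1.43-fold higher. The WT array of 9-12 months had 1.13 for Msx2, above the KO array. Among 8 compared CDK inhibitors, 3 were at least 2-fold lower and 1 higher, against 12.1% and 12.9% of all features (median -0.39). With the 9-12 month WT array the median was 0.23, opposite in direction. Cdkn2a, which encodes p16 and p19 and is a known PRC2 target, was well above background on the WT array only, at -5.26 on the KO array against -1.47 (at least 3.22-fold lower). On the arrays of 9-12 months it was well above background on 2 of the 6 KO arrays, with a highest level of -0.83, and not on the WT array (-4.51), which is the other direction.

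Genes of long-term stem cells were lower on the KO array. Of 29 compared genes in that list, 25 were at least 2-fold lower, against 12.1% of all features, and 0 were at least 2-fold higher. The list median was -2.83, or -2.62 when each gene dim on 1 array was given its bound in place of its measured difference, and -1.49 under normexp background correction. In bulk RNA, fewer cells of a type and less RNA per cell cannot be told apart. The WT array was the highest of all 10 arrays for 20 of the 29 genes, and with the 9-12 month WT array in its place the list median was -0.98.

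Sult1a1, a sulfotransferase of small phenols and a common marker of dormant stem cells in expression atlases, had -2.48 on the KO array and 5.43 on the WT array, a 240-fold difference. Its 2 probes gave differences of -7.91 and -7.79. Its levels on the other arrays were -3.47 to 4.31 on the 6 KO arrays and 0.68 on the WT array of 9-12 months, so WT_3mo was the highest of all.

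Procr, the endothelial protein C receptor used to sort long-term stem cells, had 1.43 on the KO array against 5.36 on the WT array (15.2-fold lower), with -0.35 to 3.25 on the 6 KO arrays and 3.18 on the WT array of 9-12 months. Pdzk1ip1, whose promoter has been used to label stem cells, had 3.78 against 7.35. Clec1a, a C-type lectin receptor, was well above background on the WT array only (-3.56 against 1.91, at least 33.7-fold lower).

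The surface markers that split the LSK gate differed in opposite directions. Slamf1 (CD150), kept on long-term stem cells, had -0.95 on the KO array and 1.71 on the WT array, with -1.45 on the WT array of 9-12 months, below the KO array. Cd48, which marks progenitors past that stage, had 6.66 against 5.10, and its 2 probes gave 1.55 and 1.59. Of the gate genes themselves, Kit had 4.11 against 5.16 and Ly6a (Sca-1) 5.68 against 5.05. Flt3, the receptor of lymphoid-primed progenitors, had 4.85 against 4.73.

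Transcription factors of stem cells differed to unequal degrees. Prdm16 was well above background on the WT array only (-4.79 against -0.23, at least 7.64-fold lower), as was Mecom, which encodes Evi1 (-5.26 against -1.50, at least 3.17-fold lower). Hlf had 1.35 on the KO array and 3.97 on the WT array, but 3.99 on the WT array of 9-12 months. Mllt3, a factor that keeps human stem cells in culture, had -1.30 against 2.22. Meis1, a partner of Hox proteins, had 4.21 against 5.62. Gata2 (3.27 against 3.46), Mycn (1.90 against 1.82) and Eya1 (6.98 against 6.92) were nearly level.

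The quiescence gene Cdkn1c, encoding the CDK inhibitor p57, had -0.74 on the KO array and 3.01 on the WT array (13.5-fold lower). The 6 KO arrays of 9-12 months had -1.19 to 0.98 and the WT array of that time 0.97, which again left WT_3mo above all the others. Cdkn1a (p21) had 3.15 against 3.67 and Cdkn1b (p27) 3.21 against 3.47, both under 2-fold.

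Several of the largest lower values belonged to genes outside the lists. Gstm2, a glutathione transferase, had -1.86 on the KO array against 4.97 on the WT array, and its 3 probes gave differences of -6.83 to -5.22. Nupr1, a stress-induced chromatin protein, had 1.36 against 6.31. The WT array of 9-12 months had Gstm2 at 0.74 and Nupr1 at 1.90, both between the arrays of the pair. Mmrn1, a platelet and endothelial matrix protein, had -1.43 against 3.31, and Jam2, a junctional adhesion molecule, -1.69 against 2.99. Matn4, a matrix protein, had -1.97 against 2.23, but its 2 probes gave -4.20 and -1.61. That WT array had Mmrn1 at 1.24 and Jam2 at -1.46, and Matn4 was not well above background there.

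Cldn5, the tight junction protein claudin 5, was well above background on the WT array only (-4.79 against 4.12, at least 155-fold lower), as was Tm4sf1, a membrane protein of endothelium (-5.04 against 3.85, at least 129-fold lower). Neither gene was well above background on the WT array of 9-12 months (-4.60 and -3.06), while Cldn5 was on 3 of the 6 KO arrays and Tm4sf1 on 1. Among the stromal and endothelial markers, 3 of 10 compared genes were at least 2-fold lower and 2 higher (median 0.29). Over all features the shares were 12.1% and 12.9%. Tie1, an endothelial receptor, had -0.97 against 1.47 and Emcn, an endothelial sialomucin, -2.78 against 0.16, whereas Kdr had 6.27 against 5.75 and Pecam1 -1.20 against -1.26. Of the 4 defining markers, Cdh5, Col1a1 and Cxcl12 were not well above background on either array, and Lepr, the leptin receptor of marrow stroma, was on both (5.03 against 4.23). The 4 summed to 32.7 times the 75th percentile on the KO array and 18.9 on the WT array. The part of endothelial cells in these values was not tested.

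Hoxb genes were lower on the KO array. Of 8 compared Hoxb genes, 7 were at least 2-fold lower and 0 higher, with a median of -3.46, or -2.63 with bounds for dim genes. Over the genes measured on both arrays, of which there were 2, the median was -1.07. For 6 of the 8, WT_3mo was the highest of all 10 arrays, and with the 9-12 month WT array in its place the median was -0.55. Hoxb8 had -4.91 on the KO array and 2.17 on the WT array (at least 40.3-fold lower), and none of the other 8 arrays had it well above background. Hoxb5, which marks long-term stem cells in reporter mice, had -4.24 against 0.50 (at least 12.7-fold lower), with -1.56 on the WT array of 9-12 months. Hoxb6 and Hoxb9 were well above background on WT_3mo alone of the 10 arrays, at -2.88 against 0.63 and at -4.31 against -0.05. Hoxb2 was measured on both arrays (-1.13 against 1.03). Hoxb4, known for expanding stem cells when overexpressed, had 0.33 on the KO array and 0.32 on the WT array, the exception in the cluster. In the Hoxa cluster, which lies on another chromosome, 3 of 6 compared genes were at least 2-fold lower and 1 higher. Over all features the shares were 12.1% and 12.9%. Hoxa9 had -0.51 against -0.17. The Hoxa median of -0.70 became 0.12 with the 9-12 month WT array, opposite in direction.

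Retinoic acid, made from vitamin A, keeps stem cells dormant, and several genes of its pathway were lower on the KO array. Of 11 compared genes, 6 were at least 2-fold lower and 0 higher, against 12.1% and 12.9% of all features (median -1.40). Cyp26b1, which degrades retinoic acid, had -5.12 on the KO array and 4.02 on the WT array (at least 145-fold lower). Rarb, a receptor and itself a target of the pathway, had -3.79 against 2.31 (at least 44.5-fold lower), and its probes gave differences of -6.10 and -4.17. Aldh1a1, which makes retinoic acid, had 4.06 against 6.94. Rara, the receptor that most blood cells use, had 1.69 against 0.87 and Rxrb 6.06 against 5.41, both under 2-fold. The 9-12 month WT array had Cyp26b1 at -1.14 and Rarb at -2.24, between the 2 arrays of the pair, and with it the list median was -0.22. Over genes measured on both arrays of the pair the median was -0.23.

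**Figure D2:**
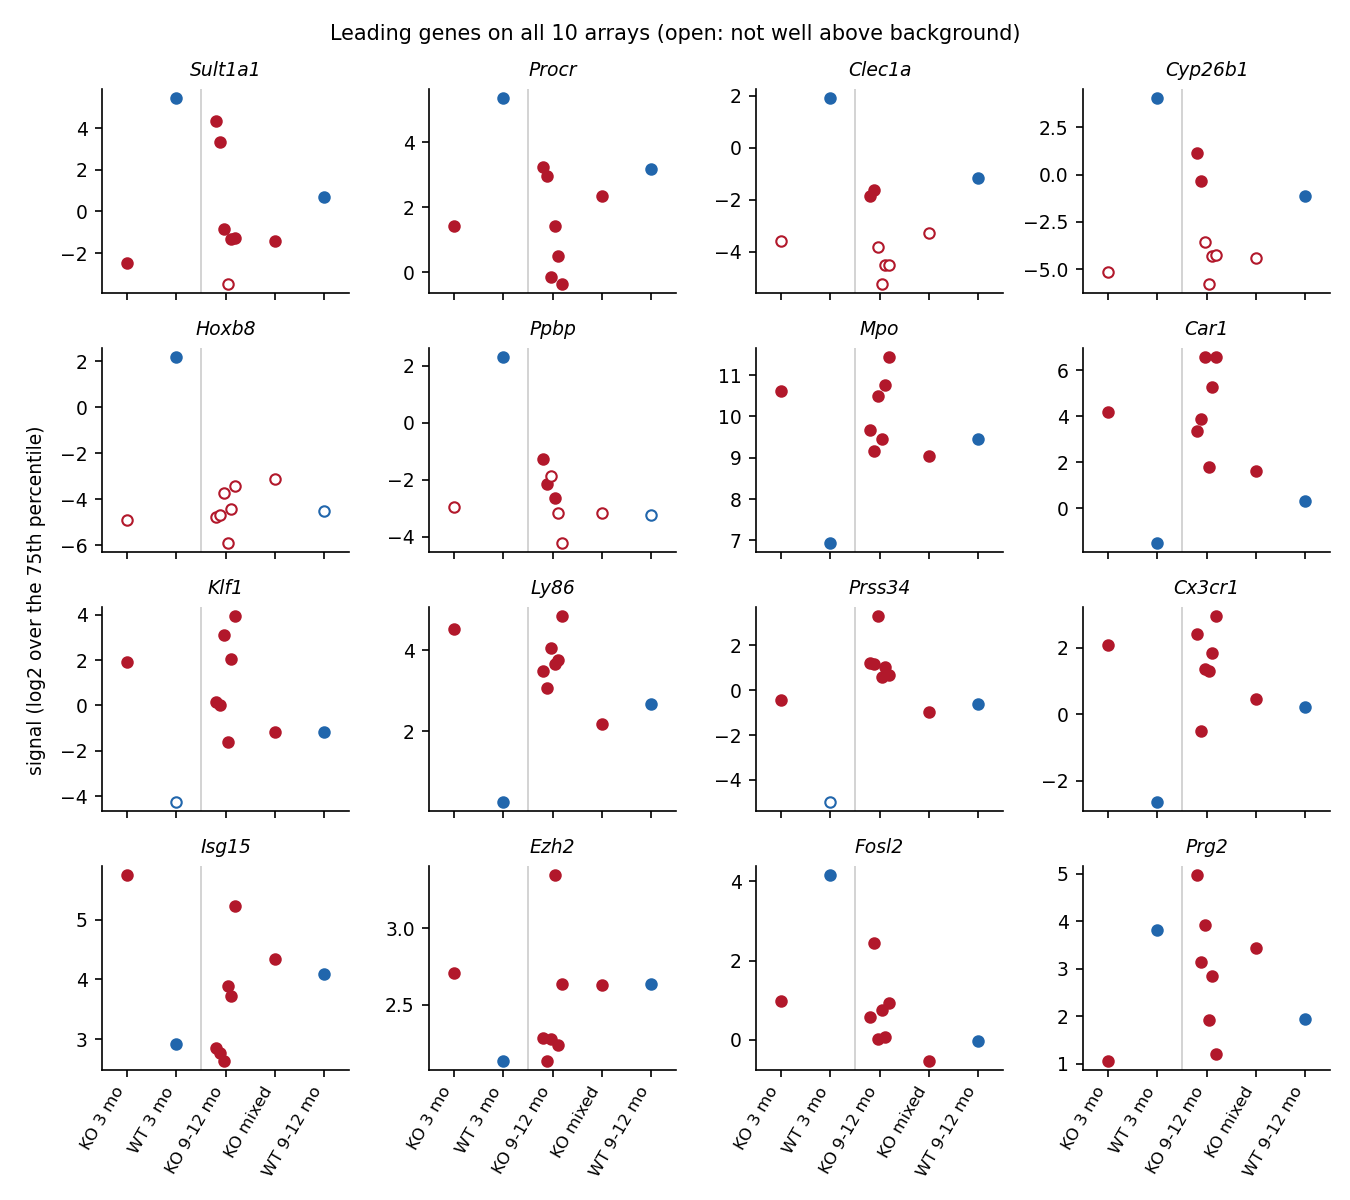
Signal (log2 over the 75th percentile) of 16 leading genes on each of the 10 arrays, in the columns KO_3mo, WT_3mo, the 6 single-mouse KO arrays, the KO array titled by genotype and the WT array of 9-12 months. Filled points are well above background. For genes such as Sult1a1, Hoxb8, Mpo and Klf1 the WT_3mo point is the most extreme of the 10.

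Of 22 compared megakaryocyte and platelet genes, 6 were at least 2-fold lower and 0 higher, against 12.1% and 12.9% of all features. The list median was -0.26, and with the 9-12 month WT array it was 0.16, opposite in direction. Vwf, the von Willebrand factor of platelets and endothelium, had 1.52 on the KO array and 4.72 on the WT array, Cavin2 0.88 against 4.89, and Itgb3 1.68 against 3.86. Ppbp, a platelet chemokine, was well above background on the WT array only (-2.97 against 2.29, at least 38.3-fold lower). Pf4, the other major platelet chemokine, had 5.84 on the KO array and 5.08 on the WT array, and Itga2b 0.83 against 0.45, both within 2-fold.

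Erythroid genes were mostly higher on the KO array. Of 20 compared genes, 12 were at least 2-fold higher, against 12.9% of all features, and 1 was lower, with a median of 2.16, or 0.76 with no filter on dim genes. Klf1, the master regulator of erythroid genes, was well above background on the KO array only (1.91 against -4.24, at least 37.1-fold higher). Gata1, which drives erythroid and megakaryocytic commitment, had 4.42 against 1.57, and Epor, the erythropoietin receptor, 2.05 against 0.07. Car1, an early erythroid carbonic anhydrase, had 4.20 against -1.48 (51.5-fold higher), with 5.69 and 5.56 on its 2 probes, and Tspo2, a mitochondrial and membrane protein of erythroblasts, 3.55 against -1.44.

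Among genes of hemoglobin and the red cell membrane the picture was mixed. The alpha globin genes Hba-a1 (0.60 against -2.20) and Hba-a2 (3.40 against 0.55) were higher, while the beta globin gene Hbb-bt had 5.38 against 5.03. These globin copies are nearly identical and may share signal between probes. Alas2 (heme synthesis) and Epb42 (a membrane skeleton protein) were not well above background on either array, and Slc4a1 (band 3) had -2.34 against -2.78. Car2, which stem cells also express, was the gene at least 2-fold lower (5.40 against 6.82). The 9-12 month WT array had Klf1 at -1.16 and Car1 at 0.33, above WT_3mo, and with it the list median was 1.60. On the 6 KO arrays of 9-12 months Klf1 ran from -1.62 to 3.94.

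Promoter letters are shown for 2 erythroid genes that were high on the KO array, since GATA factors bind AGATAA. The motif and the genes were chosen after the values were seen. The stretches are the 130 bases before the RefSeq start site (GRCm38.p6), 5′ to 3′ on the gene's strand, with AGATAA or its reverse complement in capitals. The Rhd stretch lies at chr4:134864406-134864535 on the plus strand, and that of Kel at chr6:41704326-41704455 on the minus strand.
Rhd: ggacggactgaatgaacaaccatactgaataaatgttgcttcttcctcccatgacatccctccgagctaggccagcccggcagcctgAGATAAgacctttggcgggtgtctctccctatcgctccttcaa
Kel: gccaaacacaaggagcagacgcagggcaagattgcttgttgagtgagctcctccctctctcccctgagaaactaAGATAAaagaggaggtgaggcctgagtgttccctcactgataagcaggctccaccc
Rhd, the RhD blood group protein, had 1.39 on the KO array and -3.38 on the WT array (at least 25.9-fold higher), and Kel, the Kell blood group protein, -0.93 against -5.56 (at least 5.18-fold higher). The motif was present within 250 bases upstream in 3 of 16 promoters of compared erythroid genes, against 9.99% of 32851 promoters. A match of letters does not show binding.

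Primary granule genes, which immature neutrophil precursors make, were higher on the KO array. Of 12 compared genes, all measured on both arrays, 8 were at least 2-fold higher and 0 lower, against 12.9% and 12.1% of all features. The median was 2.06, or 1.23 with no filter on dim genes. Mpo (myeloperoxidase) had 10.61 on the KO array and 6.95 on the WT array, Elane (neutrophil elastase) 6.08 against 2.62, and Ctsg (cathepsin G) 10.01 against 6.57. Ms4a3, a marker of granulocyte and monocyte progenitors, had 6.23 against 1.90. Prtn3, the protease proteinase 3, had 5.86 against 4.87, under 2-fold. The WT array of 9-12 months had Mpo at 9.46 and Ctsg at 8.32, and with it the list median was 0.85.

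Late granule genes, which belong to mature neutrophils, showed no common direction. Of 14 compared genes, 3 were at least 2-fold higher and 3 lower, against 12.9% and 12.1% of all features. The list median was -0.12. With the 9-12 month WT array the median was 1.69, opposite in direction. Lcn2 (lipocalin 2) had 2.21 on the KO array and 0.20 on the WT array, Ltf (lactoferrin) -2.71 against -0.64, and S100a8 4.46 against 4.24. Outside the lists, Hp (haptoglobin) had 6.07 against 1.57, Trem3, a myeloid receptor, 1.41 against -2.45, and Mefv, the pyrin inflammasome sensor, 1.99 against -2.97.

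Transcription factors of myeloid fate were higher in part. Irf8, required for monocyte and dendritic cell fate, had 5.42 on the KO array and 2.25 on the WT array (8.98-fold higher). Cebpa, which starts granulocyte and monocyte development, had 2.41 against 0.10, and Cebpe, of later granulocytes, 3.06 against 0.17. Gfi1 had 3.81 against 2.57, while Spi1 (PU.1), with -0.84 against -1.47, was within 2-fold. Of 11 compared factors, 4 were at least 2-fold higher and 1 lower (Klf4, 3.11 against 4.28). The shares over all features were 12.9% and 12.1%, and the list median was 0.55.

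Monocyte, macrophage and dendritic genes were high on the KO array in most members. Of 20 compared genes, 15 were at least 2-fold higher and 0 lower, against 12.9% and 12.1% of all features. The median was 2.18, or 1.51 with bounds for dim genes and 0.997 under normexp background correction. Cx3cr1, the fractalkine receptor of monocytes, had 2.07 on the KO array and -2.62 on the WT array, with differences of 4.21 to 4.69 over 3 probes. Ly86 (MD-1, of the RP105 receptor) had 4.52 against 0.26, and F13a1 (coagulation factor XIII) 4.33 against 0.10. Csf1r, the M-CSF receptor, had 5.56 against 3.38, but its probes gave differences of 0.22 to 2.18. Siglech, of plasmacytoid dendritic cells, had 8.38 against 8.36. The 4 monocyte markers of the cell type list summed to 73.5 times the 75th percentile on the KO array and 12.3 on the WT array. The WT array was the lowest of all 10 for 13 of the 20 genes, and against the 9-12 month WT array the median was 0.99.

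Mast cell and basophil genes were mostly higher on the KO array. Of 17 compared genes, 11 were at least 2-fold higher and 3 lower, against 12.9% and 12.1% of all features. The median was 2.55, or 2.19 with bounds for dim genes and 0.85 under normexp. Hdc, which makes histamine, had 3.32 on the KO array and -0.30 on the WT array. Mcpt8, a basophil protease, had 3.12 against -0.26, Fcer1a, the alpha chain of the IgE receptor, 2.59 against -0.56, and Cpa3, a mast cell protease, 3.39 against 0.99. Prss34 was well above background on the KO array only (-0.43 against -4.96, at least 7.34-fold higher), as was Gzmb (-0.45 against -4.86, at least 7.24-fold higher). Il1rl1, the interleukin 33 receptor, had 0.84 against -3.13 (15.6-fold higher). Ms4a2, the beta chain of the IgE receptor, was not well above background on either array. With the 9-12 month WT array the median was 0.88.

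Eosinophil genes were mostly lower. Of 10 compared genes, 7 were at least 2-fold lower and 3 higher, against 12.1% and 12.9% of all features. The median was -2.41, or -1.03 under normexp. Prg2, the major basic protein of eosinophil granules, had 1.07 on the KO array and 3.81 on the WT array, and Epx, the eosinophil peroxidase, -2.49 against -0.74. Ear1 (-2.03 against 0.84) and Ear2 (0.29 against 3.03) belong to a family of similar ribonucleases whose probes may share signal. The 3 higher genes, Cebpe, Gfi1 and Siglecf (1.23 against -0.49), are not limited to eosinophils. The 9-12 month WT array had Prg2 at 1.94, and with it the list median was -0.07.

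**Figure D3:**
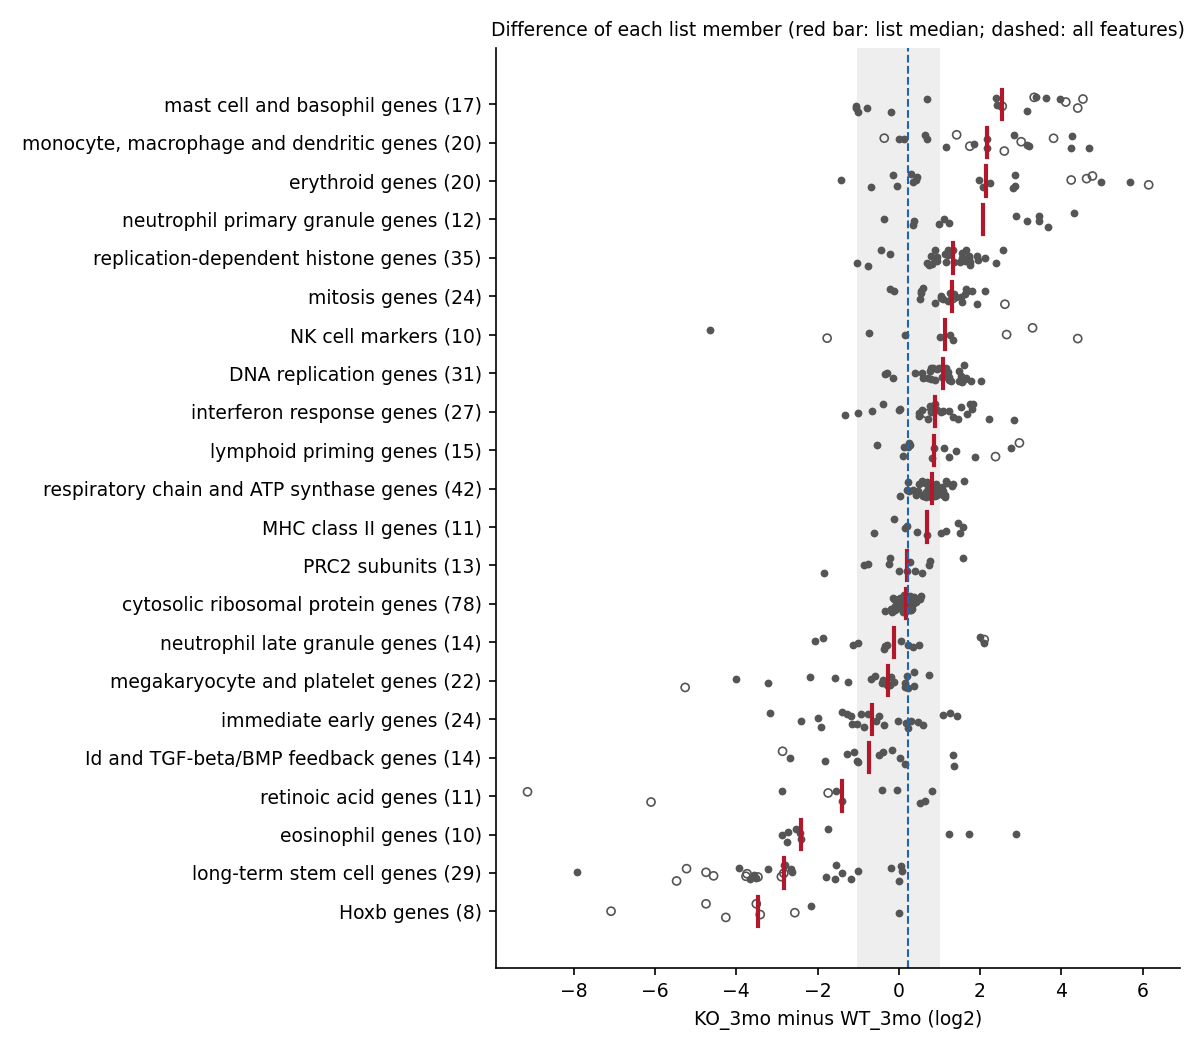
KO_3mo minus WT_3mo (log2) of each compared member of 22 gene lists, with the number of members in parentheses. Filled points are genes well above background on both arrays and open points on 1 array. The red bars are list medians, from -3.46 for Hoxb genes to 2.55 for mast cell and basophil genes, and the dashed line is the median over all features at 0.23.

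Lymphoid genes were higher in part. Of 15 compared lymphoid priming genes, 7 were at least 2-fold higher and 0 lower (median 0.88). Cnn3 (calponin 3) had 3.63 on the KO array and 0.87 on the WT array, Satb1 2.54 against 1.31, and Dntt, the terminal transferase of lymphoid-primed progenitors, 8.20 against 7.39. Of 15 B cell markers 5 were compared and 0 were at least 2-fold apart, while Cd79a, Ms4a1 and Pax5 were not well above background on either array. Among 12 compared T cell markers 4 were higher and 1 lower, against 12.9% and 12.1% of all features (median 0.44). Cd3e had 2.39 against 1.95. Of 10 compared NK cell markers 6 were higher and 2 lower (median 1.14, or 0.82 with bounds for dim genes and 0.16 with no filter). The NK receptor genes Ncr1, Klrk1, Klra8, Klra4 and Klre1 were not well above background on either array. Gzmb, Klrd1 and Gzma were well above background on the KO array only. Klrd1 had -2.09 against -5.38 (at least 2.33-fold higher), and Gzma was at least 1.53-fold higher. Il2rb was well above background on the WT array only (at least 1.85-fold lower). Klrb1c, which encodes NK1.1, had the lowest difference of the 10 compared markers, at -2.53 against 2.10.

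Genes of cell division were higher on the KO array. Of 24 compared mitosis genes, 17 were at least 2-fold higher and 0 lower, with a median of 1.30. Of 31 DNA replication genes, 17 were at least 2-fold higher and 0 lower (median 1.1). Among 35 replication-dependent histone genes, 22 were higher and 1 lower (median 1.34). Over all features the shares were 12.9% higher and 12.1% lower. Plk1, the Polo kinase of mitotic entry, had 5.14 on the KO array and 3.02 on the WT array. Birc5 (survivin) had 7.20 against 5.53, and Mki67, the proliferation antigen Ki-67, 2.35 against 0.95. Top2a, another widely used proliferation marker, had 1.84 against 1.30, under 2-fold.

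In S phase, Rrm2, which makes deoxyribonucleotides, had 5.62 on the KO array and 3.59 on the WT array, Mcm5 of the replicative helicase 6.85 against 5.32, and Pcna, the sliding clamp, 7.62 against 6.83. The linker histone genes H1f5 (8.47 against 6.08) and H1f1 (6.43 against 4.31) were more than 4-fold higher. Core histone genes are near-identical copies, and their probes may share signal. The WT array was the lowest of all 10 for 19 of 24 mitosis genes and for 19 of 31 replication genes. With the 9-12 month WT array in its place the medians were 0.23, 0.47 and 0.25.

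Promoter letters of 2 mitosis genes are shown, since cell cycle promoters often carry the repressive element TTTGAA and CCAAT boxes. Both motifs and genes were chosen after the values were seen, and capitals mark either motif on either strand. The Ube2c stretch lies at chr2:164769799-164769928 on the plus strand, and that of Cdk1 at chr10:69352913-69353042 on the minus strand, both 130 bases before the RefSeq start site (GRCm38.p6).
Ube2c: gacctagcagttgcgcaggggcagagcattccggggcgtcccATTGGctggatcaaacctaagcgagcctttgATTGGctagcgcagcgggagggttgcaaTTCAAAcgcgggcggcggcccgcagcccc
Cdk1: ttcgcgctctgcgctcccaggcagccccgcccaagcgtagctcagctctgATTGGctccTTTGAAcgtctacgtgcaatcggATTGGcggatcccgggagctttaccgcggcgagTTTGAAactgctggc
Ube2c, the ubiquitin-conjugating enzyme of the anaphase-promoting complex, had 4.39 on the KO array and 2.59 on the WT array, and Cdk1, the mitotic kinase, 4.02 against 2.49, with probe differences of 0.69 to 1.97. CCAAT was present in 18 of 22 promoters of compared mitosis genes, against 33.9% of 32851 promoters, and TTTGAA in 8 of 22, against 16.0%. These counts describe the letters only.

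Interferon response genes were partly higher on the KO array. Of 27 compared genes, 12 were at least 2-fold higher and 1 lower, against 12.9% and 12.1% of all features, with a median of 0.88. Isg15, a ubiquitin-like protein, had 5.75 on the KO array and 2.92 on the WT array, with differences of 2.76 and 2.83 on its probes. Usp18, which removes Isg15 from proteins, had 3.11 against 0.88, and Irf7, the amplifier of interferon production, 0.67 against -1.01. Other genes were lower, with Rsad2 (viperin) at 0.68 against 1.67 and Ifih1, the RNA sensor MDA5, at 0.46 against 1.79. Here it was the KO array that was the highest of all 10 in 13 of 27 genes, and with the 9-12 month WT array the median was 0.68.

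The letters of 3 interferon-responsive promoters are shown, since the interferon-stimulated response element contains 2 GAAA blocks with any 2 bases between them. The motif and genes were chosen after the values were seen, and capitals mark matches on either strand, which overlap in Isg15 and Bst2. The stretches of 130 bases end at the RefSeq start site (GRCm38.p6): Isg15 at chr4:156200819-156200948 (minus strand), Igtp at chr11:58199426-58199555 (plus strand) and Bst2 at chr8:71537473-71537602 (minus strand).
Isg15: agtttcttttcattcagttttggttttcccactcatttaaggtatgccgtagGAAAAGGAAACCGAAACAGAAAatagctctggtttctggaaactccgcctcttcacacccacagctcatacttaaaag
Igtp: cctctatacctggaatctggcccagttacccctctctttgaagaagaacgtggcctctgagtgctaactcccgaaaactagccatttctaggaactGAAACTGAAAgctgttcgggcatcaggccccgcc
Bst2: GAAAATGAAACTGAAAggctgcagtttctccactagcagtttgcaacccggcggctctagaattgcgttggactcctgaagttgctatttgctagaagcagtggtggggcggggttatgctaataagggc
Igtp, an interferon-induced GTPase, had 5.90 on the KO array and 4.14 on the WT array, and Bst2 (tetherin) 5.46 against 3.63. The motif was present in 11 of 23 promoters of compared interferon genes, against 2.98% of 32851. Of the 11 genes with it, 6 were at least 2-fold higher.

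MHC class II genes, which antigen-presenting cells express, were at least 2-fold higher in 5 of 11 compared members and lower in 0, against 12.9% and 12.1% of all features (median 0.70). H2-Ab1 had 7.32 on the KO array and 5.80 on the WT array, and the invariant chain Cd74 had 4.09 against 2.64. Of 42 respiratory chain and ATP synthase genes, all differed in the same direction, 11 were at least 2-fold higher, and the median was 0.82. Among all 3930 features with a mean level of 4 and above, 534 were at least 2-fold higher and the median was 0.40. Uqcrq, of complex III, had 8.68 against 7.38. Cytochrome c (Cycs) had 7.69 against 6.08, but its 3 probes ranged from -0.62 to 1.61. The 78 cytosolic ribosomal protein genes stayed within 2-fold (median 0.18). That is near the median of all features and below the 0.40 of features with a mean level of 4 and above.

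Immediate early genes, which cells switch on within minutes of stimulation or handling, were high on both arrays. Of 24 compared genes, 9 were at least 2-fold lower on the KO array and 3 higher, against 12.1% and 12.9% of all features (median -0.65). Fosl2 had 0.99 on the KO array and 4.15 on the WT array, with probe differences of -3.16 and -1.48, Nr4a1 7.03 against 9.02, and Maff 2.15 against 4.06. Fos (8.18 against 7.10) and Dusp1 (7.55 against 6.30) were higher, and Jun had 9.63 against 9.66. On the 6 KO arrays of 9-12 months Nr4a1 ran from -0.24 to 7.62 and Fos from -0.98 to 6.71, so both arrays of the pair lay above those arrays for Fos. The mean level over the 24 genes was 4.84 on the KO array and 5.42 on the WT array, against -0.01 to 4.34 on the 6 KO arrays and 2.73 on the WT array of the other slide. The part of cell handling in any list was not tested. Against the 9-12 month WT array the median of this list was 1.63, opposite in direction.

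Among feedback genes of TGF-beta signaling, 6 of 14 compared were at least 2-fold lower and 2 higher, against 12.1% and 12.9% of all features. The median was -0.74, and 0.50 against the 9-12 month WT array. Skil (SnoN), an inhibitor of Smad proteins, had 1.42 on the KO array and 4.09 on the WT array, and Id3 1.66 against 3.49. The ligand gene Tgfb1 had 2.90 against 1.54.

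**Figure D4:**
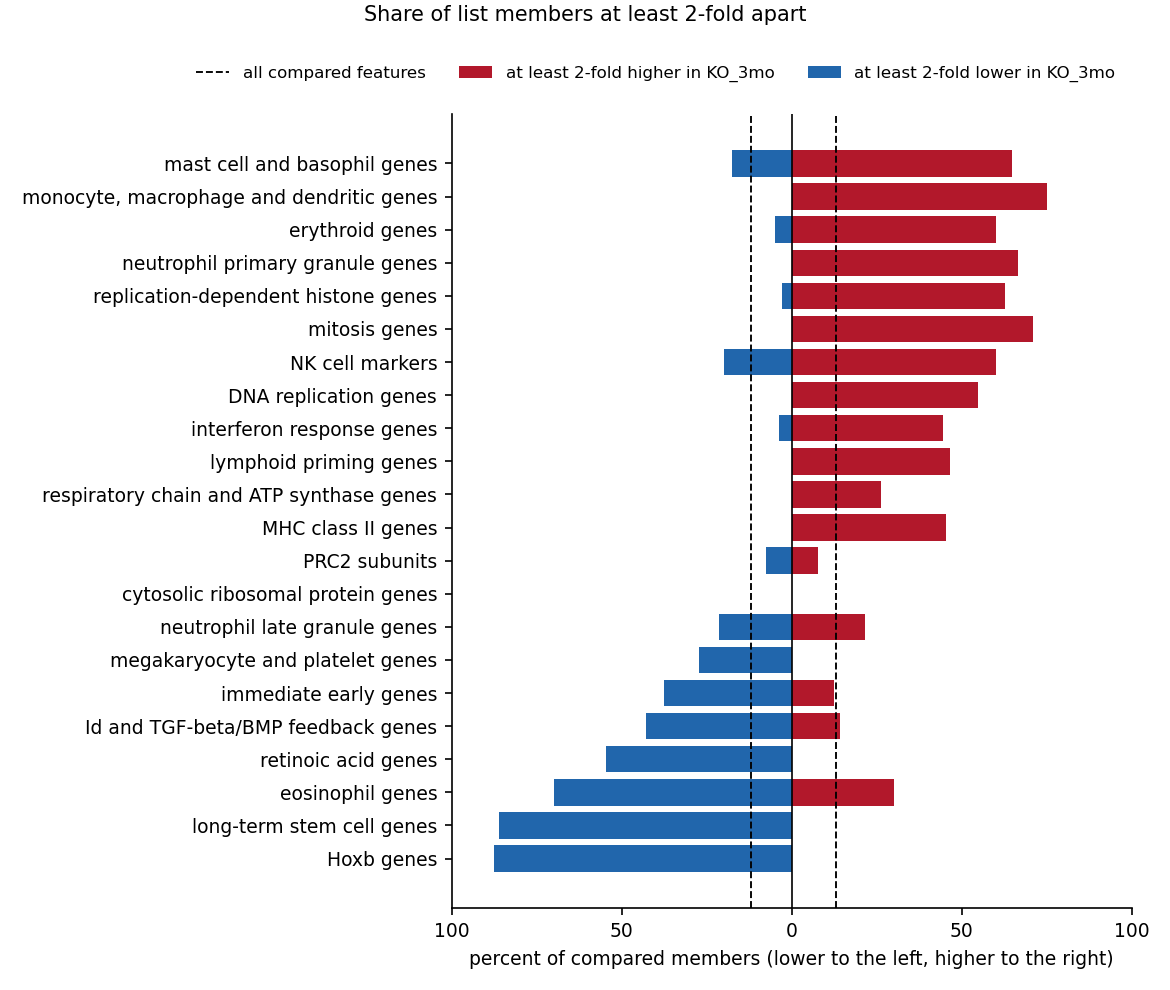
Percent of the compared members of 22 gene lists at least 2-fold higher (red, right) or lower (blue, left) on KO_3mo than on WT_3mo. The dashed lines are the shares over all compared features, 12.9% higher and 12.1% lower. Hoxb and long-term stem cell genes reach 87.5% and 86.2% lower, and 15 of 20 monocyte genes are higher.

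The markers of the LSK gate were measured on both arrays, and defining markers of mature B cells (0 of 4 well above background on either array) were not. Of the mature erythroid markers 1 of 3 was well above background on each array, of the neutrophil markers 3 of 3, and of the T cell markers 3 of 4. The 5 genes taken as LSK markers, of which only Kit and Ly6a define the gate, summed to 448.0 times the 75th percentile on the KO array. The sum on the WT array was 321.5. Cd34 made up most of both sums (8.45 against 7.81), and the members split. Differences were -1.05 for Kit and -0.95 for Ptprc, and 0.64 for Cd34, 0.63 for Ly6a and 0.12 for Flt3. Mast cell markers summed to 19.3 and 2.84, and T cell markers to 25.8 and 20.5. The part of sorted cell mixture in the lineage lists was not tested.

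The same lists were set beside the 9-12 month comparison, which has no array in common with the pair. All 6 single-mouse KO arrays differed from the WT array in the direction of the pair for several lists. These were the Hoxb, primary granule, monocyte, erythroid, mast cell, NK cell and MHC class II genes. T cell markers, myeloid fate transcription factors and p53 target genes were also among them. The 6 differences share that single WT array, so their count is not 6 independent values. The KO array titled by genotype, against the same WT array, went the other way for some of these lists. Its medians were -0.30 for primary granule, -0.20 for mast cell, -0.06 for NK cell, -0.11 for T cell and -0.40 for MHC class II genes. For Hoxb, monocyte and erythroid genes they were -0.05, 0.03 and 0.16. For myeloid fate factors and p53 target genes they were 0.12 and 0.17. For long-term stem cell and retinoic acid genes 5 of the 6 single-mouse arrays had the direction of the pair. The medians over all 6 were -1.81 to 0.03 and -1.05 to 0.02. For erythroid genes the 6 medians ran from 0.25 to 4.76. For Hoxb genes they ran from -1.38 to -0.25, smaller in size than the -3.46 of the pair in every array. Hoxb6, Hoxb7, Hoxb8 and Hoxb9 were not well above background on any 9-12 month array, so these Hoxb medians rest in part on dim signals. Late granule genes were higher on all 6 KO arrays (1.09 to 4.45), against -0.12 in the pair. The direction of the pair was seen in 0 of 6 arrays for the listed LSK marker genes and for glucocorticoid response genes. It was seen in 1 of 6 for TGF-beta feedback genes and stromal markers, and in 2 of 6 for interferon response genes. Eosinophil genes were lower in 2 of 6, and mitosis genes higher in 4 of 6 with medians of -0.35 to 0.51.

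Across 22421 features the difference of the pair had a Pearson correlation of 0.26 with the mean difference of the 6 KO arrays from their WT array, and of 0.12 with the difference of the other genotype-titled pair. These are across features that share arrays. The limma test of the difference between the 2 comparisons, with the spread of the 6 KO arrays, called 0 of 23290 features (605 higher and 555 lower at an unadjusted p under 0.05), and 144 higher and 40 lower after quantile normalization. The differences between list medians at the 2 time labels were not tested.

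**Figure D5:**
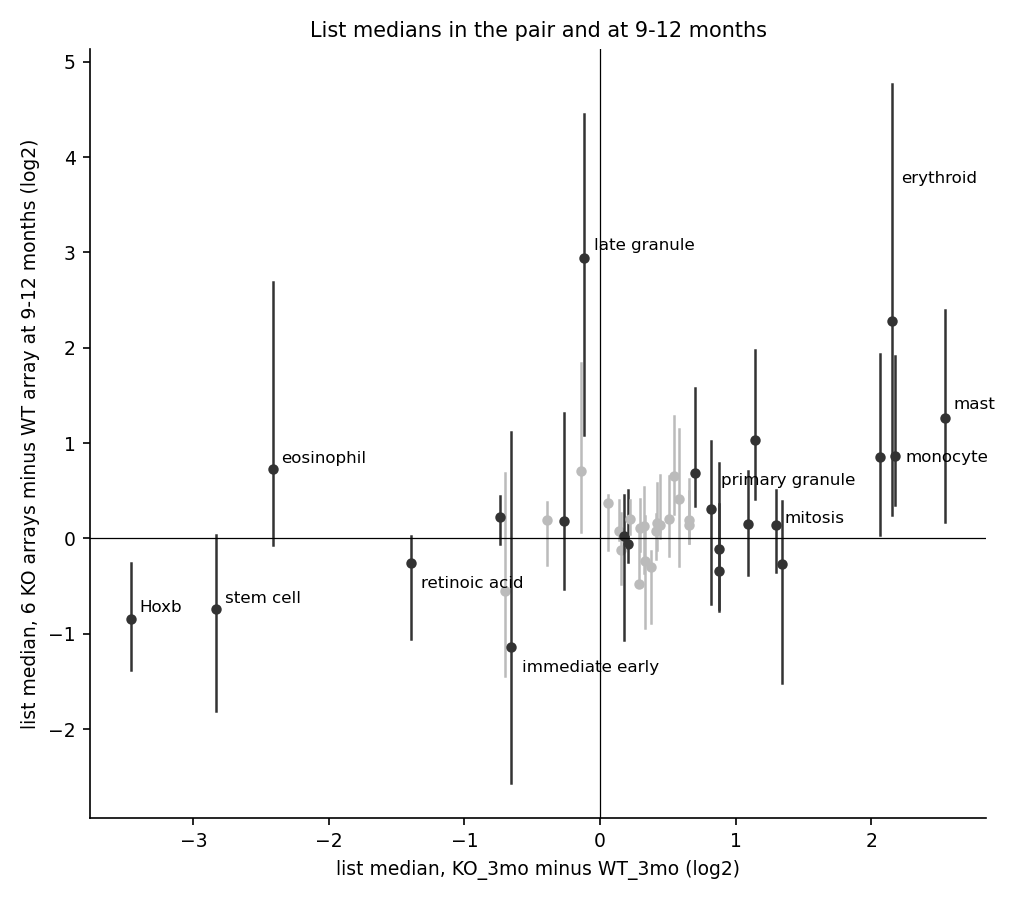
Median difference of each of 42 gene lists in the pair (horizontal) and for KO over WT at 9-12 months (vertical, both log2). Points are the list median of the mean over the 6 KO arrays, and bars run from the lowest to the highest of the 6 arrays. Stem cell and Hoxb lists lie to the left, erythroid, monocyte and mast cell lists to the upper right, and late granule genes run from 1.09 to 4.45 at 9-12 months, against -0.12 in the pair.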

How the data were processed

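RNA was hybridised on Agilent 1-colour arrays, 1 per sample, from 0.02 µg of RNA labelled with Cy3, per the labels. The deposited scanner files hold an intensity per spot, background-subtracted and detrended by Feature Extraction 10.7.1.1, per the file headers, whereas the submitters' processing notes name version 9.1. The deposited value table holds a ratio per probe, found here to be the same intensity over the 75th percentile of the array.

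Outlier and control spots were left out, spots of 1 probe averaged, and log2 intensity over the 75th percentile of the array taken. Genes were named through RefSeq (27656 of 55681 probes by 1 symbol), with the brightest probe for each. Probes are on build mm9 and promoter sequences on GRCm38.p6, so the only coordinates given are those of the promoter stretches. Where a gene was well above background on 1 array only, its fold is a lower bound against the higher of its own signal and the lowest signal well above background on the dim array. Counts of features at least 2-fold apart use measured levels.

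Members and gene lists (43 lists, 843 of 874 genes on the array) were chosen with earlier results of these data known. Named genes were the listed LSK marker genes and PRC2 subunits, the 15 largest differences per direction and the 8 largest bounds per direction. Added to these were up to 4 members of each list by size of difference, and features past the limma threshold, of which there were 0. Other list members named above were picked after their values were seen. The limma fit (limma 3.58.1, R 4.3.3, Benjamini-Hochberg) was tested on simulated data. Tables were handled in pandas 2.3.3 with numpy 2.4.6 under Python 3.11.15, and figures drawn in matplotlib 3.10.9. Alternatives were quantile normalization, normexp, centring, 2 filters, the median probe, the value table, a floor for dim values, limma settings and each KO array left out. Precision is limited by having 1 array per genotype.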

Additional observations from a re-analysis of the deposited data

How the results depend on the processing

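With 1 array per genotype, the main limit is the missing replicate. The 2-fold counts (2883 higher, 2715 lower) were 865 higher and 659 lower under normexp, where an offset of 50 is added to every intensity, and 4938 and 4107 with no filter on dim features. Over features measured on both arrays, 1330 were lower. Lists with a median of at least 1 in size numbered 13, but 6 under normexp. With the 9-12 month WT array, an alternative chosen after seeing the data, 7 lists reached that size. Of the 13, only the erythroid list (1.60) was among those 7, and the others of the 13 fell below 1. The rest of the 7 included late granule (1.69) and immediate early genes (1.63), whose medians in the pair were -0.12 and -0.65. The limma counts of 0 became 5 higher and 34 lower for the pair, and 144 and 40 for the difference between times, under quantile normalization. Leaving out each KO array in turn gave 0 to 0 calls in each. Of features 2-fold apart, 51.5% were higher, against 42.3% under quantile normalization and 60.6% over features measured on both arrays. The median over all features was 0.23, and 0.06 under quantile normalization. All 13 lists kept their direction under the 8 alternatives planned, 5 of them past 2-fold in each, but sizes dropped: the weakest medians were 0.76 for erythroid (2.16 in the report), 0.85 for mast cell (2.55), 0.997 for monocyte (2.18), 1.23 for primary granule (2.06), 0.16 for NK cell (1.14), 0.66 for replication, -1.07 for Hoxb (-3.46), -1.49 for stem cell (-2.83), -1.03 for eosinophil (-2.41), -0.23 for retinoic acid (-1.40) and -0.44 for Y-linked genes (-1.01). Of 175 named genes at least 2-fold apart, 127 stayed so in each alternative that could be computed, and Cd247 alone reversed (-0.39 with the median probe). The cause was not tested. No paired analysis was possible because the pair has 1 array per genotype and no replicate numbers.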

Other observations

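Glycolysis genes showed no common direction (median 0.32). Of 22 compared genes, 4 were at least 2-fold lower on the KO array and 2 higher, against 12.1% and 12.9% of all features. The isozymes split: Aldoc, an aldolase of brain, had 2.05 on the KO array and 4.47 on the WT array, and Slc2a3, a glucose transporter, 2.39 against 4.20, whereas Pgam1 had 7.06 against 5.58. Of 23 compared p53 target genes, 7 were at least 2-fold higher and 2 lower, against 12.9% and 12.1% of all features (median 0.22). Bax, which opens the outer mitochondrial membrane in apoptosis, had 4.67 against 2.02, and Pmaip1 (Noxa) 3.67 against 1.23, but Cdkn1a, the classic p53 target, had 3.15 against 3.67. Mcl1, a survival factor of stem cells, had 5.54 against 6.83.

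Among DNA methylation enzymes, 2 of 11 compared were at least 2-fold higher and 0 lower, against 12.9% and 12.1% of all features (median 0.65). Dnmt1, the maintenance methyltransferase, had 2.64 on the KO array and 1.15 on the WT array, and Uhrf1, its recruiter, 6.82 against 5.23. Adhesion receptors split, with Esam, an endothelial and stem cell junction protein, at 0.93 against 3.72 and Itgal, an integrin of leukocytes, at 0.85 against -1.28. The shared beta chain of the receptors for interleukin 3 and interleukin 5, Csf2rb, had 3.79 against 1.07, and its near-identical copy Csf2rb2, which may share signal, 2.64 against 0.05.

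The Y-linked gene Eif2s3y was nearly level between the arrays (2.04 on the KO array and 2.15 on the WT array), while Ddx3y had -0.63 against 1.28. Xist was not well above background on either array. Blk, a B cell kinase, was well above background on both arrays of the pair (0.53 on the KO array and 0.02 on the WT array) and on none of the other 8 arrays, with -4.23 to -2.26 on the 6 single-mouse KO arrays.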
